A study of Homo sapiens with 12 samples.

Results

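The genes described here are 48 genes of DNA replication origins and forks, chosen by name from the licensing factors, the replicative helicase, the replicative polymerases and primase, the sliding clamp and its loaders, the proteins of Okazaki fragment joining, the fork protection complex and the factors that rebuild chromatin behind the fork. All 48 had a row in the deposited gene table of 18668 genes, and all 48 were among the 17702 genes tested. RNA came from 22Rv1, an established human prostate cancer cell line described by the submitters as growing without androgen and labelled WT. Cells were exposed for 24 h to a degrader, to the clinical antiandrogen enzalutamide, to a ligand that activates autophagy, or to vehicle alone. Each of these 4 groups had 3 libraries from biologically independent cultures, and the labels gave no doses.

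Before S phase, the origin recognition complex, CDC6 and CDT1 load the ring of MCM2 to MCM7 onto DNA, a step called licensing that geminin (GMNN) restrains once S phase has begun. The CDC7-DBF4 kinase, MCM10, CDC45 and the GINS complex turn the loaded ring into the active CMG helicase (CDC45, MCM2 to MCM7 and GINS), after which polymerase alpha and primase start each strand and polymerases epsilon and delta extend it on the PCNA clamp. Many of these genes are known targets of E2F transcription factors, whose activity peaks at entry into S phase, and cells that leave the cell cycle usually carry less of their mRNA.

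The degrader libraries held less mRNA of nearly every gene in the set, and the other compounds gave no change that passed the test. Of the 48 genes, 42 were lower and 0 were higher in degrader libraries than in vehicle libraries at a Benjamini-Hochberg adjusted p under 0.05 by edgeR's quasi-likelihood test, where 16.4% of all 17702 genes were called lower and 16.4% higher. The median log2 fold change was -0.30 over the 48 genes, a median fall of 18.6%, against 0.01 over all genes tested. Every fitted value was below 0, with a range of -0.48 for ORC6 to -0.01 for CDT1. The fall of ORC6 was 28.1%. In bulk RNA, fewer cells in S phase and less of these mRNAs per cell cannot be told apart.

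**Figure D1:**
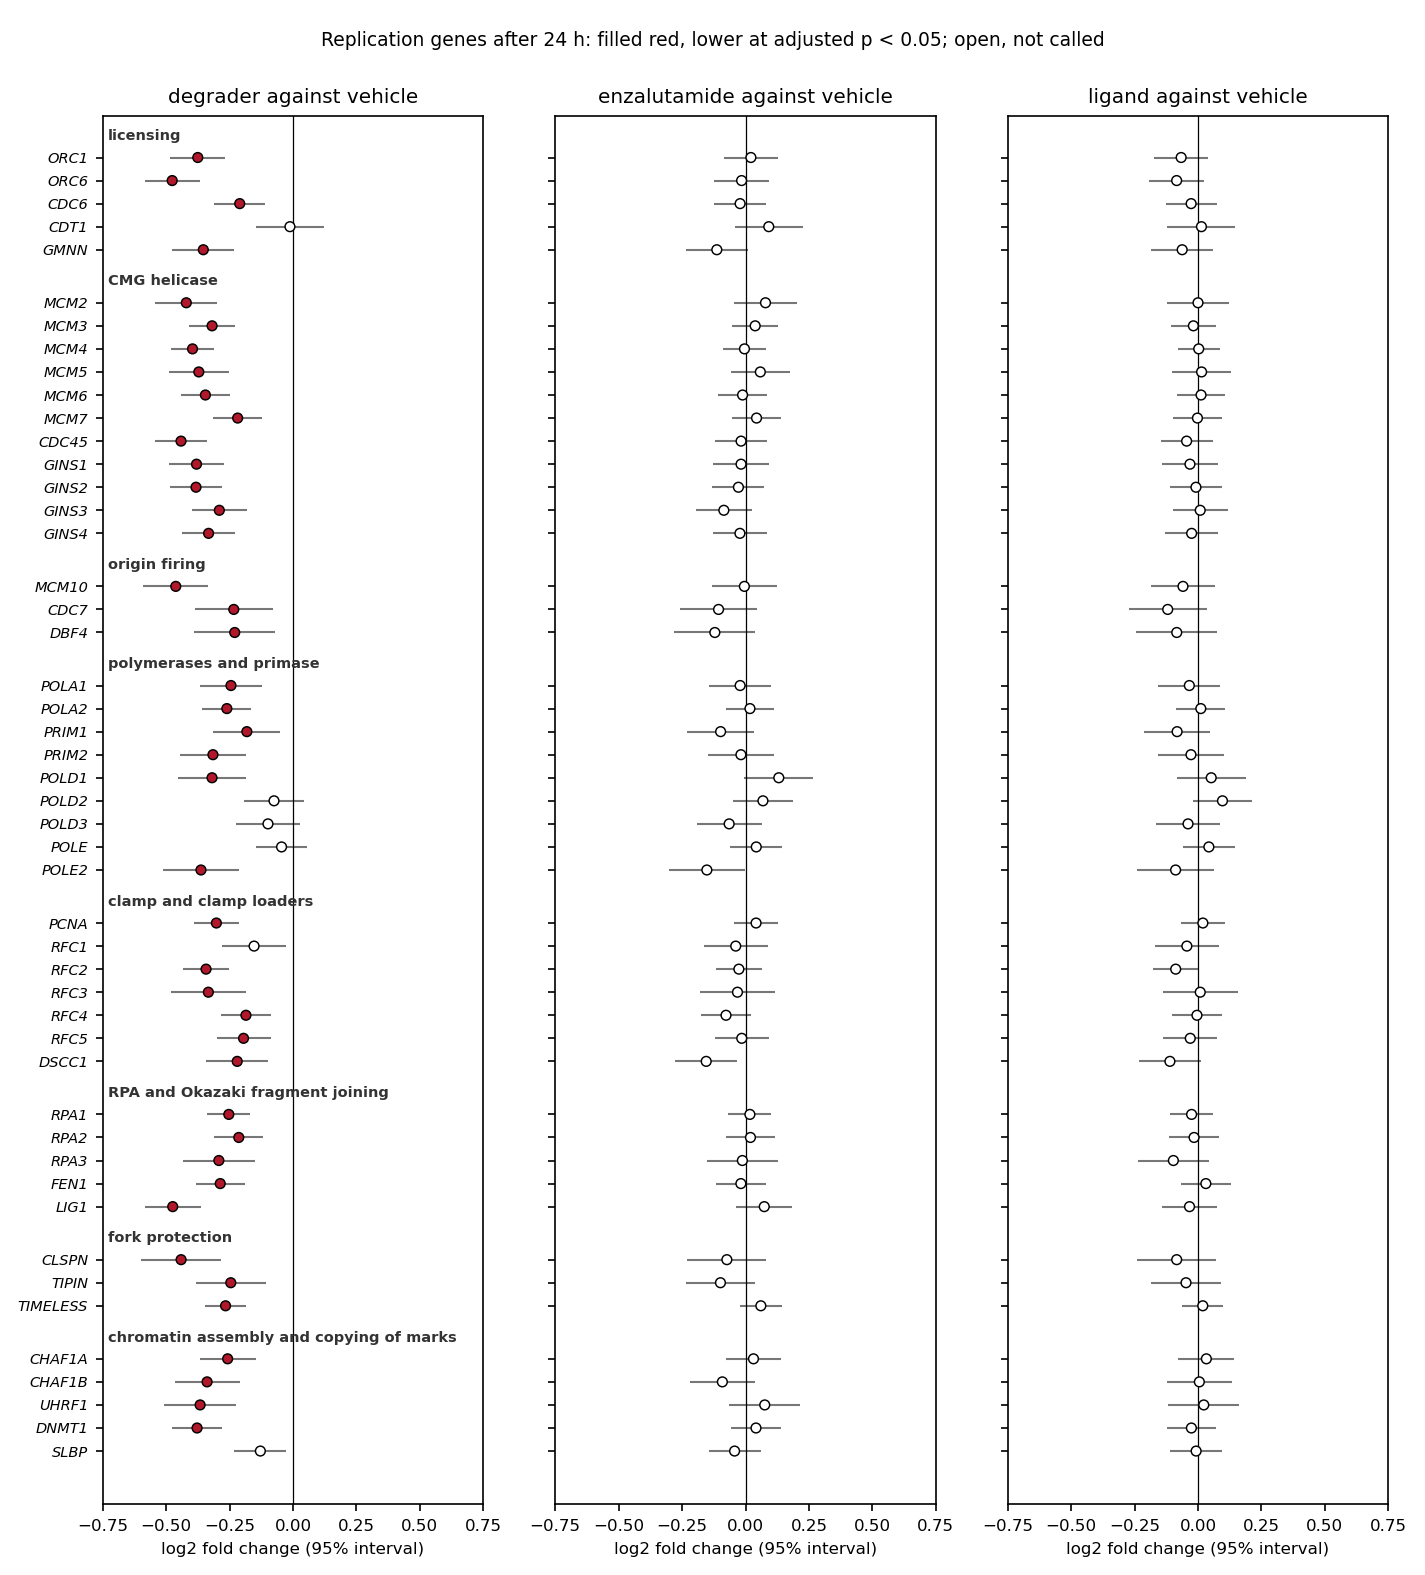
Log2 fold changes of the 48 replication genes against vehicle for the degrader, enzalutamide and the ligand (x axis, log2 scale; bars, 95% interval; filled red, called lower; open, not called), grouped by role. In the degrader panel 42 of 48 points are filled and lie left of 0, and in the enzalutamide and ligand panels 0 of 48 are filled.

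Sequencing was deep and even: library totals were 58.3 to 77.2 M counted reads in degrader libraries, 59.4 to 69.3 M in enzalutamide, 55.5 to 71.8 M in ligand and 60.2 to 74.8 M in vehicle libraries, and the set's counts ran from 1210 for PRIM2 to 43739 for MCM7. The 13 mitochondrial protein genes took 7.17 to 8.12% of reads. All 8 luminal prostate markers were measured, among them KLK3, HOXB13 and KRT8, with a summed level of 1758 to 1816 CPM (read counts scaled to library size) in degrader libraries, 1957 to 2065 in enzalutamide, 2208 to 2302 in ligand and 2287 to 2421 in vehicle libraries. Of the 8, 6 were called lower under the degrader, where 16.4% of all genes were, and the median log2 fold change was -0.41. In the other direction, 1 of the 8 had a log2 fold change of 0.13 that was not called, with its degrader libraries above all vehicle libraries. The summed level was lower in all degrader and all enzalutamide libraries than in all vehicle libraries. Enzalutamide against vehicle had 4 of the 8 called lower and 0 higher (median -0.32), where 193 of all 17702 genes were lower. The ligand against vehicle had 1 lower and 0 higher (median -0.04), where 6 of all genes were lower. Of the other cell types, the basal marker KRT15 was at 1.31 to 1.65 CPM in degrader libraries, 0.937 to 1.18 in enzalutamide, 1.31 to 1.67 in ligand and 0.989 to 1.05 in vehicle libraries, and was called higher under the degrader than in vehicle (0.50 ± 0.16 SE, adjusted p = 0.0250). The leukocyte markers CD68 and CD14 summed to 5.83 to 7.64 CPM in degrader, 7.15 to 9.17 in enzalutamide, 7.43 to 8.88 in ligand and 8.29 to 8.98 in vehicle libraries, with CD68 called lower under the degrader (-0.31 ± 0.11 SE, adjusted p = 0.0421). The 4 fibroblast markers summed to 17.4 to 21.2 CPM over the 12 libraries and none was called. The part of these shifts in the replication genes' values was not tested. The table listed only genes with at least 1 read in every library, and KRT5, KRT14, TP63, COL1A2, PTPRC, CD3E and the endothelial markers were not analysed here.

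Promoter sequence is shown first, and the choice of genes by name did not use it. Many of these genes are known E2F targets, so a high share of E2F words was likely whatever these libraries held. RefSeq promoters on GRCh38.p14, from 250 bases before to 50 after the annotated start, were matched for 41 of the 48 genes. An exact match on either strand to one of 4 E2F words (TTTCCCGC, TTTGGCGC, TTTCGCGC or TTTGCCGC, which can overlap on opposite strands) was found in 18 of these 41 promoters (43.9%), against 5.02% of 12949 promoters of genes in the deposited table. Among the matched genes, 16 of 36 promoters of genes called lower and 2 of 5 of genes not called held a match. A match describes letters in a window and is neither a measured binding site nor a cause of a change.

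The promoters of 4 genes are printed in lower case with E2F words in capitals: LIG1 and CLSPN, the genes with the largest falls among those with a match, CDT1, the gene with the smallest change, and MCM6, chosen after its sequence was seen because it held the most matches. LIG1 (chr19:48170295-48170594, minus strand) has its match 114 bases upstream of the start, CLSPN (chr1:35769929-35770228, minus strand) 5 bases upstream and CDT1 (chr16:88803539-88803838, plus strand) 35 bases upstream. MCM6 (chr2:135876394-135876693, minus strand) has 4 matches, as 2 pairs in which a TTTGGCGC on one strand overlaps a TTTCGCGC on the other.
LIG1: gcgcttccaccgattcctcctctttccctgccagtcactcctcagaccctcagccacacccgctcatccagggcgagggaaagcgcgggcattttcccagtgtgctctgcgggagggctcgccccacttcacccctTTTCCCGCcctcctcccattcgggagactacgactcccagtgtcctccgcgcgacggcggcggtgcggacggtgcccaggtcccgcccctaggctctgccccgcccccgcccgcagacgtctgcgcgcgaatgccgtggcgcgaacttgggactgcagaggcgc
CLSPN: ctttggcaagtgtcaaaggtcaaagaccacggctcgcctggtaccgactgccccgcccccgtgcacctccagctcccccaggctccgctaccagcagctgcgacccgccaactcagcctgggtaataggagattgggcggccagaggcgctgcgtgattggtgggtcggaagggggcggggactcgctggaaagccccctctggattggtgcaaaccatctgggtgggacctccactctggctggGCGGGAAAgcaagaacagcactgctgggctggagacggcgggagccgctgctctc
MCM6: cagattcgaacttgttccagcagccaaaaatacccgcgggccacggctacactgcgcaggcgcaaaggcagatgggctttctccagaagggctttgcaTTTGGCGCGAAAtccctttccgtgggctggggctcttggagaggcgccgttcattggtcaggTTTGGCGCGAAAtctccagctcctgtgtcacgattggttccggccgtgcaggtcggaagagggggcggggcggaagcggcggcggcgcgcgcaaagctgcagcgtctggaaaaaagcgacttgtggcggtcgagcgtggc
CDT1: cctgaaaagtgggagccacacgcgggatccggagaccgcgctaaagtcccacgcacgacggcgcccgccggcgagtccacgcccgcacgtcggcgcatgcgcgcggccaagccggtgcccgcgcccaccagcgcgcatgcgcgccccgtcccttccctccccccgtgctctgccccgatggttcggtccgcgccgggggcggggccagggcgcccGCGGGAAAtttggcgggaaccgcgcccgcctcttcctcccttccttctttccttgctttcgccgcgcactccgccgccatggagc

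Another pair of motifs was counted in the same windows. The CHR word (TTTGAA or TTCGAA), known from promoters of genes expressed in G2 and mitosis, was in 2 of 41 replication promoters (4.88%), in 15 of 21 promoters of the mitotic list described below (71.4%) and in 11.7% of promoters of table genes. CCAAT was in 21 of 41 replication promoters (51.2%), 16 of 21 mitotic ones (76.2%) and 36.2% of table genes. These are counts of letters, and the difference between the lists was not tested.

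Of the 5 licensing genes 4 were lower in degrader than in vehicle libraries. For this role and those below, the share of all genes called lower was 16.4%. ORC6, the smallest subunit of the origin recognition complex, had 35.9, 37.1 and 37.1 CPM in degrader libraries, 48.3, 53.6 and 49.6 CPM in enzalutamide libraries, 48.9, 46.9 and 48.7 CPM in ligand libraries and 52.00, 49.3 and 51.8 CPM in vehicle libraries. Its degrader libraries lay below all 9 others, and its log2 fold change against vehicle of -0.48 ± 0.05 (SE; adjusted p = 2.77e-06) was the largest fall of the 48, 28.1%. ORC1, the subunit whose protein level cycles with the cell cycle, had 27.6, 28.99 and 28.6 CPM in degrader libraries, 37.1, 36.5 and 38.6 CPM in enzalutamide libraries, 34.8, 36.5 and 34.2 CPM in ligand libraries and 35.8, 37.9 and 36.9 CPM in vehicle libraries. The degrader libraries were again below all 9 others, with a log2 fold change of -0.38 ± 0.05 (SE; adjusted p = 3.19e-05).

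The loader CDC6 fell less. It had 84.9, 93.3 and 92.6 CPM in degrader libraries, 99.7, 108 and 101 CPM in enzalutamide libraries, 104, 102 and 101 CPM in ligand libraries and 103, 106 and 105 CPM in vehicle libraries, and its groups did not overlap, with a log2 fold change of -0.21 ± 0.05 (SE; adjusted p = 0.00279). Geminin, which binds CDT1 and blocks relicensing, had 44.3, 44.3 and 46.9 CPM in degrader libraries, 52.6, 57.2 and 50.4 CPM in enzalutamide libraries, 58.2, 53.1 and 54.5 CPM in ligand libraries and 58.5, 59.7 and 54.96 CPM in vehicle libraries. GMNN was lower in every degrader library than in any other, with a log2 fold change of -0.35 ± 0.06 (SE; adjusted p = 0.000188).

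CDT1, the licensing factor that geminin binds and that is degraded in S phase, did not pass the test. It had 100.4, 98.6 and 88.1 CPM in degrader libraries, 108, 98.6 and 102 CPM in enzalutamide libraries, 100.0, 103 and 88.9 CPM in ligand libraries and 99.8, 97.2 and 92.5 CPM in vehicle libraries, so its degrader and vehicle libraries overlapped. The log2 fold change was -0.01 (95% interval -0.15 to 0.12; adjusted p = 0.908), so a fall the size of ORC6's lies outside the interval, and its sign turned positive when degrader replicate 3 or vehicle replicate 1 was left out (0.04 and 0.01). In the same libraries its inhibitor GMNN was down by 21.7%, although the difference between the CDT1 and GMNN changes was not tested.

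**Figure D2:**
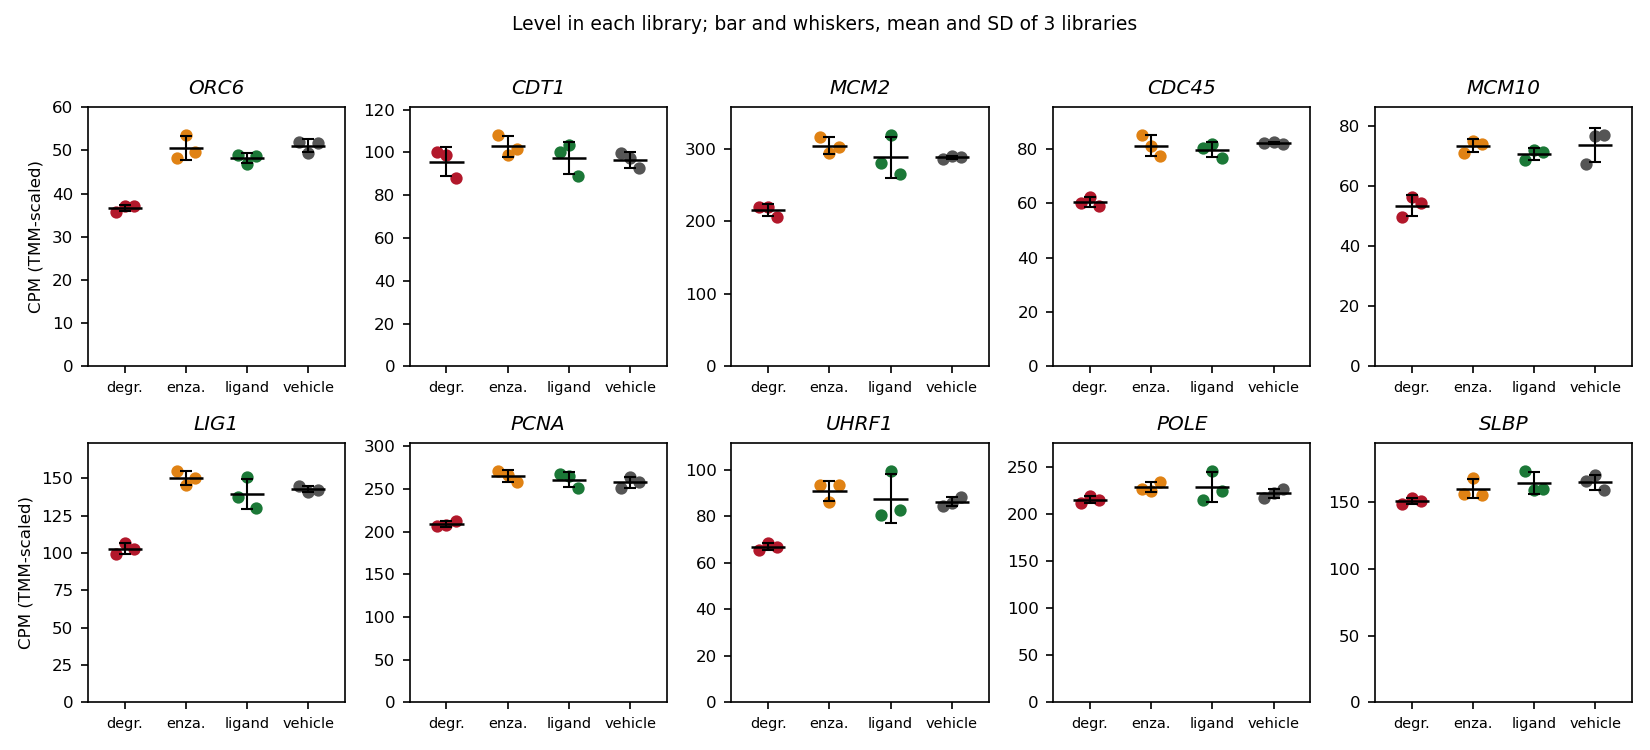
Level of 10 replication genes in each library (y axis, TMM-scaled CPM from 0; points, libraries; bar and whiskers, mean and SD of 3). For ORC6, MCM2, CDC45, MCM10, LIG1, PCNA and UHRF1 the degrader points lie below all others, SLBP's do so by a smaller margin, and those of CDT1 and POLE overlap with other groups.

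All 11 subunits of the CMG helicase were lower in degrader libraries, with a median log2 fold change of -0.37. For all 11 the degrader libraries lay below all 9 others, which held for 13.4% of all genes tested. CDC45, the subunit recruited when an origin fires, had 60.2, 62.3 and 58.8 CPM in degrader libraries, 85.1, 80.98 and 77.2 CPM in enzalutamide libraries, 80.3, 81.8 and 76.5 CPM in ligand libraries and 82.2, 82.4 and 81.6 CPM in vehicle libraries. Its log2 fold change was -0.44 ± 0.05 (SE; adjusted p = 3.40e-06), a fall of 26.4%. MCM2, one of the 6 ring subunits, had 219.6, 220.1 and 206 CPM in degrader libraries, 317, 294 and 303 CPM in enzalutamide libraries, 280.1, 319 and 265 CPM in ligand libraries and 286, 289 and 289 CPM in vehicle libraries, with a log2 fold change of -0.42 ± 0.06 (SE; adjusted p = 3.59e-05). The ligand libraries of MCM2 were the most spread, and even the lowest of them was above every degrader library.

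The rest of the ring fell by similar amounts apart from MCM7, whose change was the smallest of the 11. Log2 fold changes were -0.40 for MCM4, -0.37 for MCM5, -0.35 for MCM6, -0.32 for MCM3 and -0.22 for MCM7 (adjusted p from 1.22e-06 to 0.00153). The 4 GINS subunits, which hold the helicase together at the fork, had log2 fold changes of -0.38 for GINS1, -0.38 for GINS2, -0.29 for GINS3 and -0.33 for GINS4. MCM7 shares 392 exonic bases with AP4M1 on the opposite strand, and whether the authors counted reads by strand is not given in the sources used here.

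Subunits that sit once each in the ring differed widely in mRNA level per length. On the authors' FPKM scale (reads scaled to transcript length and library size), MCM7 averaged 182 ± 4.55 in degrader and 212 ± 3.03 in vehicle libraries, and MCM4 77.6 ± 2.16 and 102 ± 3.97 (SD, n = 3). MCM2, which is thought to gate the ring together with MCM5, averaged 56.7 ± 2.43 FPKM in degrader and 75.8 ± 1.25 FPKM in vehicle libraries. These 3 were the most abundant of the ring. MCM3 and MCM5 were lower, at 37.96 ± 0.393 and 35.4 ± 1.47 FPKM in degrader and 47.5 ± 0.781 and 45.7 ± 1.18 FPKM in vehicle libraries. MCM6 was the lowest of the 6 at 21.9 ± 1.03 FPKM in degrader and 27.7 ± 1.10 FPKM in vehicle libraries. The order of MCM7, MCM4, MCM2 and MCM6 was the same in both groups, while MCM3 and MCM5 lay close together in vehicle libraries.

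**Figure D3:**
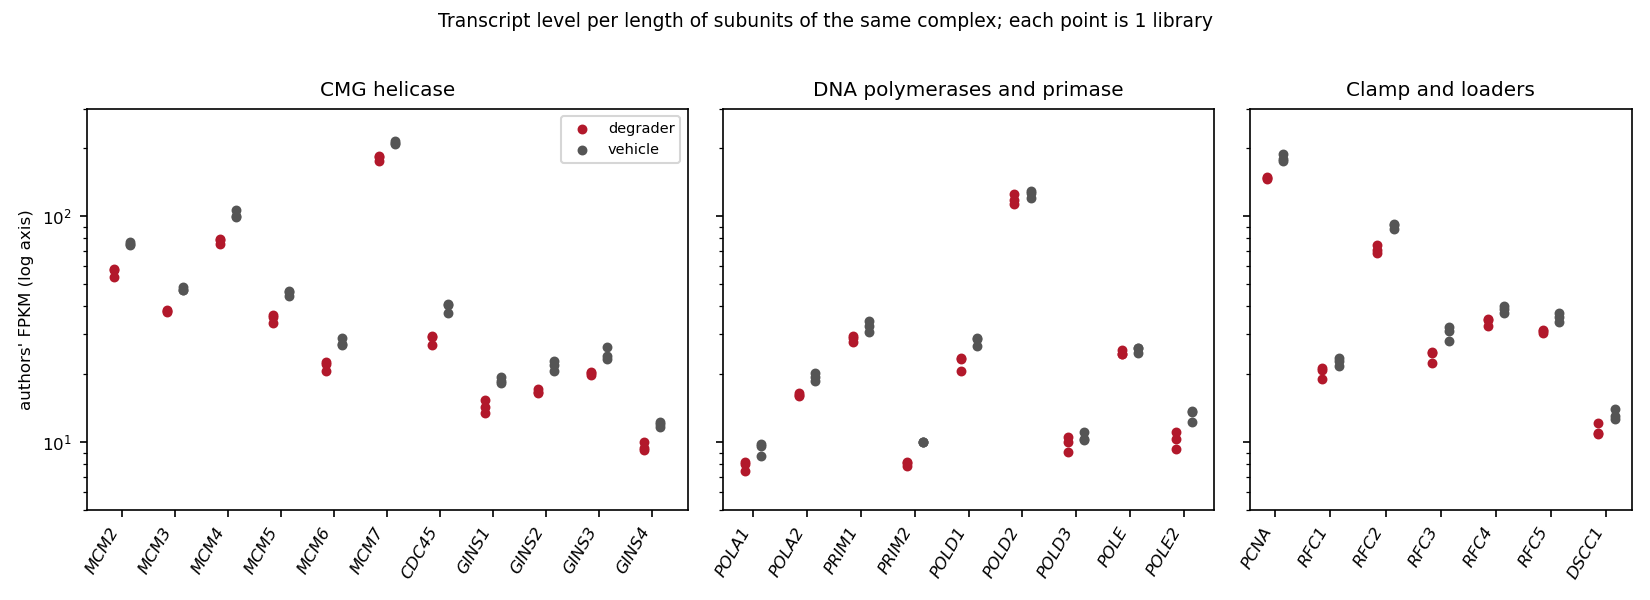
Authors' FPKM (y axis, log scale) of helicase, polymerase and clamp genes in each degrader and vehicle library (points, 3 per group). The degrader points sit below the vehicle points for nearly all genes, while POLD2, POLD3 and POLE overlap, and the order of levels within each complex is much the same in both groups.

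All 3 origin firing factors were lower. MCM10, which binds the helicase as it becomes active, had 49.7, 56.2 and 54.5 CPM in degrader libraries, 71.04, 75.1 and 74.02 CPM in enzalutamide libraries, 68.5, 72.1 and 71.4 CPM in ligand libraries and 67.3, 76.6 and 77.01 CPM in vehicle libraries. All degrader values were lower than all others, and the log2 fold change was -0.46 ± 0.06 (SE; adjusted p = 2.05e-05). CDC7, the kinase that phosphorylates the MCM ring, had a log2 fold change of -0.23 ± 0.07 (SE; adjusted p = 0.0203), and DBF4, its activating subunit, had -0.23 ± 0.08 (SE; adjusted p = 0.0279). Neither kinase gene had its degrader libraries below all 9 others. The CDC7 call was lost without degrader replicate 1 (adjusted p = 0.0887), degrader replicate 2 (0.0583) or vehicle replicate 2 (0.1004), with a range of 0.00250 to 0.1004 over the 14 other settings tried. The DBF4 call was lost without degrader replicate 1 (adjusted p = 0.140), degrader replicate 2 (0.0601), vehicle replicate 2 (0.123) or vehicle replicate 3 (0.0537), with a range of 0.00640 to 0.140 over the settings. DBF4 also has a processed pseudogene, DBF4P1, in the table, to which some of its reads may have been assigned.

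Of the 9 polymerase and primase genes 6 were lower, and the 3 that did not pass were all subunits of the leading and lagging strand polymerases. POLE2, the second subunit of polymerase epsilon, had 18.1, 19.8 and 21.2 CPM in degrader libraries, 21.6, 24.1 and 22.7 CPM in enzalutamide libraries, 24.96, 22.1 and 24.5 CPM in ligand libraries and 26.2, 25.8 and 23.99 CPM in vehicle libraries, with a log2 fold change against vehicle of -0.36 ± 0.07 (SE; adjusted p = 0.000917). POLD1, the catalytic subunit of polymerase delta, had 88.9, 88.7 and 79.3 CPM in degrader libraries, 125, 113 and 114 CPM in enzalutamide libraries, 112, 119 and 101 CPM in ligand libraries and 111, 107 and 103 CPM in vehicle libraries, with a log2 fold change of -0.32 ± 0.06 (SE; adjusted p = 0.00108). For both genes the degrader libraries were the lowest of the 12. The primase subunits PRIM2 and PRIM1 had log2 fold changes of -0.32 ± 0.06 (SE; adjusted p = 0.000904) and -0.18 ± 0.06 (SE; adjusted p = 0.0334), and the polymerase alpha subunits POLA1 and POLA2 of -0.24 and -0.26. The PRIM1 call was lost without degrader replicate 1 (adjusted p = 0.0619), degrader replicate 2 (0.136), vehicle replicate 1 (0.0755) or vehicle replicate 2 (0.139), with a range of 0.0148 to 0.139 over the settings.

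The genes that did not pass included POLE, the catalytic subunit of polymerase epsilon, with a log2 fold change of -0.05 (95% interval -0.15 to 0.06; adjusted p = 0.512). POLD2 and POLD3, accessory subunits of polymerase delta, had -0.07 (95% interval -0.19 to 0.04; adjusted p = 0.328) and -0.10 (95% interval -0.23 to 0.03; adjusted p = 0.230). Within polymerase delta, mRNA per length was unequal: POLD2 averaged 119 ± 6.11 FPKM in degrader and 126 ± 4.89 FPKM in vehicle libraries, POLD1 22.5 ± 1.57 and 28.1 ± 1.21 FPKM, and POLD3 9.88 ± 0.757 and 10.6 ± 0.452 FPKM (SD, n = 3 each). The highest of the 3, POLD2, was one of the least changed genes of the set, and it too has a pseudogene in the table.

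The clamp and most of its loaders were lower. PCNA, the ring that tethers polymerases to DNA, had 207, 208 and 212 CPM in degrader libraries, 271, 266 and 258 CPM in enzalutamide libraries, 267, 265 and 251 CPM in ligand libraries and 251, 264 and 258 CPM in vehicle libraries, and its log2 fold change was -0.30 ± 0.04 (SE; adjusted p = 3.45e-05). The groups were well apart, since the highest degrader value was below the lowest of the other 9. RFC2, a subunit of the complex that opens the clamp, had 130.2, 139 and 133 CPM in degrader libraries, 168, 169.7 and 164 CPM in enzalutamide libraries, 163, 163 and 154 CPM in ligand libraries and 173, 172 and 167 CPM in vehicle libraries, with a log2 fold change of -0.34 ± 0.04 (SE; adjusted p = 1.33e-05). RFC3, another of its subunits, had 55.2, 61.2 and 62.7 CPM in degrader libraries, 69.9, 74.8 and 75.97 CPM in enzalutamide libraries, 74.7, 69.7 and 82.7 CPM in ligand libraries and 69.1, 78.8 and 77.9 CPM in vehicle libraries, with a log2 fold change of -0.33 ± 0.07 (SE; adjusted p = 0.00152).

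The smaller falls in this group were in RFC5 (-0.20), RFC4 (-0.19) and DSCC1 (-0.22), the last a subunit of an alternative loader that acts in sister chromatid cohesion. RFC1, the largest loader subunit, missed the threshold at -0.15 (95% interval -0.28 to -0.03; adjusted p = 0.0585) and passed it in 6 of 14 other settings, among them DESeq2 (adjusted p = 0.0395), without degrader replicate 3 (0.0424) and without vehicle replicate 1 (0.0463), with a range of 0.00554 to 0.228 over the settings. In mRNA per length PCNA was the highest of this group, with 147 ± 1.56 FPKM in degrader and 182 ± 6.60 FPKM in vehicle libraries, followed by RFC2 with 71.4 ± 2.83 and 90.6 ± 2.50 FPKM. PCNA has 3 annotated pseudogenes whose reads could be confused with its own.

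All 5 genes of single-strand binding and Okazaki fragment joining were lower. LIG1, the ligase that seals Okazaki fragments and whose promoter is printed above, had 99.1, 106 and 103 CPM in degrader libraries, 155, 146 and 149.8 CPM in enzalutamide libraries, 137, 150.5 and 130.2 CPM in ligand libraries and 145, 141 and 142 CPM in vehicle libraries. Its degrader libraries lay far below the rest, with a log2 fold change of -0.47 ± 0.05 (SE; adjusted p = 3.34e-06), and it was the gene of the set with the largest fall against enzalutamide and against the ligand. RPA3, the smallest subunit of the single-strand binding complex, had 44.97, 45.6 and 44.3 CPM in degrader libraries, 58.3, 55.4 and 50.1 CPM in enzalutamide libraries, 56.8, 49.3 and 48.3 CPM in ligand libraries and 54.9, 57.3 and 52.9 CPM in vehicle libraries, with a log2 fold change of -0.29 ± 0.07 (SE; adjusted p = 0.00283). The flap nuclease FEN1 had -0.29, RPA1 -0.25 and RPA2 -0.21, all past the threshold.

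In the fork protection complex, CLSPN (claspin, the mediator that links stalled forks to CHEK1) had 46.1, 56.5 and 57.9 CPM in degrader libraries, 65.1, 71.6 and 70.2 CPM in enzalutamide libraries, 67.2, 68.4 and 69.8 CPM in ligand libraries and 67.1, 75.7 and 74.97 CPM in vehicle libraries. The degrader libraries were the 3 lowest, and the log2 fold change was -0.44 ± 0.07 (SE; adjusted p = 0.000235). TIMELESS and its partner TIPIN fell by less, with log2 fold changes of -0.27 ± 0.04 (SE; adjusted p = 5.94e-05) and -0.25 ± 0.07 (SE; adjusted p = 0.00804). The TIPIN call was lost without vehicle replicate 2 (adjusted p = 0.0580, the highest over settings that reached down to 0.00143), and 579 of its exonic bases also lie in the pseudogene RPL9P25 on the same strand.

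Genes that rebuild chromatin and copy DNA methylation behind the fork were lower in 4 of 5 cases. DNMT1, the maintenance DNA methyltransferase, had 216, 224 and 216 CPM in degrader libraries, 296, 296 and 286 CPM in enzalutamide libraries, 269, 298 and 272 CPM in ligand libraries and 275, 288 and 291 CPM in vehicle libraries, with a log2 fold change of -0.38 ± 0.05 (SE; adjusted p = 9.94e-06). UHRF1, which recruits DNMT1 to half-methylated DNA, had 65.6, 68.6 and 66.6 CPM in degrader libraries, 93.4, 86.01 and 93.4 CPM in enzalutamide libraries, 80.5, 99.6 and 82.8 CPM in ligand libraries and 84.5, 85.8 and 88.5 CPM in vehicle libraries, with a log2 fold change of -0.37 ± 0.07 (SE; adjusted p = 0.000481). Both had their lowest values in the degrader libraries. CHAF1B and CHAF1A, subunits of the histone chaperone CAF-1, had log2 fold changes of -0.34 and -0.26. SLBP, which binds the stem loop of replication-dependent histone mRNA, did not pass at -0.13 (95% interval -0.23 to -0.03; adjusted p = 0.0514), and it passed in 7 of 14 other settings, among them without vehicle replicate 3 (adjusted p = 0.0429), with a range of 0.0180 to 0.194 over the settings.

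Across the 12 libraries, the summed level of the 48 genes was 4797 to 4942 CPM in degrader libraries, 5902 to 6035 in enzalutamide, 5706 to 6078 in ligand and 5866 to 5984 in vehicle libraries, so the degrader libraries stood apart and the other groups overlapped. In 39 of the 48 genes all 3 degrader libraries were below the other 9, which held for 13.4% of all genes tested, and in 0 genes were they above, which held for 14.1%. The exceptions were CDT1, CDC7, DBF4, PRIM1, POLD2, POLD3, POLE, RFC1 and DSCC1. Set against vehicle libraries alone, 44 of the 48 genes had groups that did not overlap, where 22.1% of all genes did so in this direction. Within the degrader group the libraries were not equal: replicate 1 was above its group mean in 9 genes, replicate 2 in 38 and replicate 3 in 30, with a mean deviation of -0.04 on the log2 scale in replicate 1.

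The authors' own comparisons were read beside these. At an adjusted p under 0.05 the authors' deposited table listed 44 of the 48 genes as lower and 0 as higher under the degrader, and 42 of these 44 were the genes called above. The other 2 were RFC1 (adjusted p = 0.0395 in the authors' deposited table) and SLBP (adjusted p = 0.0295 in the authors' deposited table). The DESeq2 run made here gave the same adjusted p for both genes and also called 44 of the 48 lower. The authors' counts are therefore not separate support for that run. For enzalutamide and for the ligand the authors' deposited table listed 0 of the 48. The same counts over all genes of the authors' deposited table are not given here, so these counts stand without a background share.

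The degrader was then compared with each of the other compounds. These comparisons use the same degrader libraries as the one with vehicle, so their values are given side by side and are not independent of it. Against enzalutamide, 36 of the 48 genes were lower and 0 higher (edgeR, adjusted p under 0.05), where 16.1% of all genes were called lower and 16.3% higher. The median log2 fold change was -0.28, and the largest falls were -0.55 for LIG1 (adjusted p = 7.21e-07), -0.50 for MCM2, -0.46 for ORC6, -0.46 for MCM10 and -0.45 for POLD1. The 12 genes that did not pass were CDT1, CDC7, DBF4, PRIM1, POLD2, POLD3, POLE, RFC1, RFC4, DSCC1, TIPIN and SLBP, with log2 fold changes of -0.15 to -0.03. The POLE2 call here (-0.21 ± 0.07 SE, adjusted p = 0.0329) was lost without degrader replicate 1 (adjusted p = 0.146), degrader replicate 2 (0.0779), enzalutamide replicate 2 (0.131) or enzalutamide replicate 3 (0.0736), with a range of 0.0159 to 0.146 over the settings. That of RFC5 (-0.18 ± 0.05 SE, adjusted p = 0.0113) was lost without enzalutamide replicate 2 (adjusted p = 0.0724; range 0.00205 to 0.0724), and POLD2 passed in 5 of 14 settings, namely RLE factors, DESeq2, only the compared groups, the replicate block and without degrader replicate 1 (range 0.00425 to 0.212). RFC1 (0.0341; range 0.0341 to 0.514) and TIPIN (0.0419; 0.0419 to 0.330) passed with the block, and RFC4 with DESeq2 (0.0443; 0.0443 to 0.271), as adjusted p.

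Against the ligand, 39 genes were lower and 0 higher, where 14.2% of all genes were called lower and 14.3% higher. The median log2 fold change was -0.29, led by LIG1 at -0.44 (adjusted p = 1.13e-05), MCM2 at -0.42, MCM10 at -0.40, MCM4 at -0.40 and CDC45 at -0.40. CDT1, CDC7, DBF4, PRIM1, POLD3, POLE, RFC1, DSCC1 and SLBP did not pass. In both comparisons the 11 helicase subunits and the 5 genes of single-strand binding and Okazaki fragment joining were all called lower.

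Some calls against the ligand were lost or gained when 1 library was left out or another setting was used. CDC6 (adjusted p = 0.0501; range over settings 0.000829 to 0.0501) and POLA1 (0.0571; 0.000555 to 0.0571) did not pass without degrader replicate 1. POLD2 did not pass without degrader replicate 2 or 3 or ligand replicate 1 or 2 (adjusted p = 0.0846, 0.0993, 0.116 and 0.109; range 0.00126 to 0.116). RPA3 did not pass without any 1 of the degrader replicates or ligand replicate 1 (adjusted p = 0.0747, 0.0689, 0.0875 and 0.218; range 0.00572 to 0.218). The RFC5 call was lost without degrader replicate 1 or 2 or ligand replicate 1 (adjusted p = 0.0720, 0.0594 and 0.0665; range 0.00479 to 0.0720). The TIPIN call was lost without degrader replicate 1 or ligand replicate 2 or 3 (adjusted p = 0.138, 0.0737 and 0.0693; range 0.00832 to 0.138). With only the compared groups fitted, POLD2, RPA3 and TIPIN did not pass (adjusted p = 0.0585, 0.0541 and 0.0557). SLBP passed in 3 of 14 settings, with DESeq2, with the replicate block and without ligand replicate 3 (adjusted p range 0.0271 to 0.297), and RFC1 passed with the block (range 0.0434 to 0.510). None of these 8 genes is a helicase subunit.

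Enzalutamide against vehicle changed none of the 48 genes past the threshold. The count was 0 by edgeR, DESeq2 and limma-voom. At an unadjusted p under 0.05 by edgeR there were 2 of the 48, and 1749 of all 17702 genes tested. After adjustment edgeR called 1.44% of all genes in either direction (62 higher and 193 lower). With the replicate number as a block 154 were higher and 399 lower, and the 48 stayed at 0. Log2 fold changes ran from -0.15 to 0.13, and their 95% intervals stayed within -0.30 to 0.27. The smallest p-values were those of DSCC1 (-0.15 ± 0.06 SE, adjusted p = 0.321), POLE2 (-0.15 ± 0.07 SE, adjusted p = 0.498) and POLD1 (0.13 ± 0.06 SE, adjusted p = 0.519). These intervals leave out a fall the size of ORC6's under the degrader, and smaller changes may have gone undetected.

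At an unadjusted p under 0.05 by edgeR, the ligand against vehicle gave 0 of the replication genes, and 1297 of all 17702 genes tested. After adjustment 0 replication genes were called by edgeR, DESeq2 and limma-voom, where edgeR called 0.237% of all genes (36 higher and 6 lower). That small count moved with single libraries: 19, 22 and 70 genes were higher without ligand replicates 1, 2 and 3, and 21 and 19 without vehicle replicates 2 and 3. Without vehicle replicate 1 the count also lay within 19 to 70. Those called lower were 2 to 7 over these runs. Log2 fold changes ran from -0.12 to 0.10 with intervals within -0.27 to 0.21. RFC2 (-0.09 ± 0.04 SE, adjusted p = 0.687), DSCC1 (-0.11 ± 0.06 SE, adjusted p = 0.722) and POLD2 (0.10 ± 0.06 SE, adjusted p = 0.775) had the smallest p-values. The ligand against enzalutamide also gave 0 called replication genes by edgeR, DESeq2 and limma-voom, where edgeR called 2.04% of all genes. At an unadjusted p under 0.05 by edgeR this comparison gave 0 of the replication genes, and 1622 of all 17702 genes tested. Its smallest p-values were those of LIG1 (-0.11 ± 0.05 SE, adjusted p = 0.566), GINS3 (0.09 ± 0.05 SE, adjusted p = 0.669) and ORC1 (-0.09 ± 0.05 SE, adjusted p = 0.708).

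Neighbouring parts of the replication and cell cycle programme were read in the same degrader against vehicle fit. Of 31 other replication genes 21 were lower and 0 higher, with a median log2 fold change of -0.22, where 16.4% of all genes were called lower. Without vehicle replicate 2 the count was 14, as ORC3, MCMBP, MCM8, TOPBP1, POLE4, CHTF8 and ASF1A did not pass, and it was 16 to 21 without each other library. The smallest p-values belonged to TOP2A, the topoisomerase of late S phase and mitosis (-0.64 ± 0.06 SE, adjusted p = 1.48e-06), SUPT16H (-0.39 ± 0.04 SE, adjusted p = 4.76e-06) and SSRP1 (-0.35 ± 0.04 SE, adjusted p = 1.77e-05), the subunits of the histone chaperone FACT, and NASP, a histone H3 and H4 chaperone (-0.36 ± 0.04 SE, adjusted p = 8.53e-06). Of 9 genes of S phase entry 7 were lower and 0 higher (median -0.23), led by the phosphatase CDC25A (-0.45 ± 0.05 SE, adjusted p = 5.35e-06), FBXO5, an inhibitor of the anaphase-promoting complex (-0.51 ± 0.07 SE, adjusted p = 1.81e-05), and the cyclins CCNE1 (-0.57 ± 0.08 SE, adjusted p = 2.39e-05) and CCNE2 (-0.39 ± 0.07 SE, adjusted p = 0.000613). CCNE2 had 34.9, 36.2 and 36.1 CPM in degrader libraries, 38.9, 43.98 and 40.8 CPM in enzalutamide libraries, 41.1, 37.7 and 48.3 CPM in ligand libraries and 45.6, 47.5 and 47.7 CPM in vehicle libraries, so the fall was seen in all 3 degrader libraries relative to vehicle.

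Of 13 genes of the E2F family and its partners 7 were lower and 2 were higher, the last a share near that of all genes called higher (16.4%), and 11 of the 13 fitted values were below 0. The count called lower was 5 without degrader replicate 1 or 2 or vehicle replicate 2, and the median log2 fold change was -0.18. E2F8, a repressor that is itself a late target of the family, fell the most (-0.64 ± 0.07 SE, adjusted p = 4.78e-06), followed by the activator E2F2 (-0.31 ± 0.04 SE, adjusted p = 4.81e-05) and the partner TFDP1 (-0.28 ± 0.04 SE, adjusted p = 5.93e-05). RBL2, the p130 pocket protein of quiescent cells, was higher (0.26 ± 0.05 SE, adjusted p = 0.000532), as was the partner TFDP2 (0.16 ± 0.05 SE, adjusted p = 0.0246), whose call was lost without degrader replicate 1 or 2 or vehicle replicate 1 or 2 (adjusted p = 0.0553, 0.0756, 0.0633 and 0.0682; range over settings 0.00906 to 0.0756). E2F1, the best known activator of replication genes, had 86.6, 90.4 and 84.99 CPM in degrader libraries, 94.6, 91.3 and 92.9 CPM in enzalutamide libraries, 97.6, 97.1 and 90.9 CPM in ligand libraries and 93.3, 91.6 and 89.6 CPM in vehicle libraries. Its groups overlapped, and its log2 fold change did not pass the test (-0.07, 95% interval -0.16 to 0.03, adjusted p = 0.286).

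Of 10 replication checkpoint genes 3 were lower and 1 was higher, where 16.4% of all genes were called in each direction, and the median log2 fold change was -0.10. Only 1 was lower without degrader replicate 1 or 2 or vehicle replicate 2 or 3. RAD9A, part of the clamp that activates the checkpoint kinase, was higher (0.27 ± 0.06 SE, adjusted p = 0.00188). CDC25B (-0.18 ± 0.04 SE, adjusted p = 0.00472), CHEK1 (-0.22 ± 0.08 SE, adjusted p = 0.0404) and ETAA1 (-0.21 ± 0.08 SE, adjusted p = 0.0454) were lower. The CHEK1 call was lost without degrader replicate 1 or 2 or vehicle replicate 2 or 3 (adjusted p = 0.176, 0.0794, 0.140 and 0.122; range over settings 0.00343 to 0.176). The ETAA1 call was lost without degrader replicate 1 or 2 or any 1 of the vehicle replicates (adjusted p = 0.192, 0.127, 0.0713, 0.133 and 0.0810) and with upper quartile factors (0.0557; range over settings 0.0115 to 0.192).

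Larger falls were seen in mitotic genes. All 26 on the list were called lower under the degrader, where 16.4% of all genes were. Their median log2 fold change was -0.70, with a range of -0.98 to -0.50, so that even the least changed of them lay beyond ORC6. The smallest p-values were those of CCNB1 (-0.93 ± 0.04 SE, adjusted p = 1.19e-10), PLK1 (-0.98 ± 0.05 SE, adjusted p = 5.42e-10), KIF20A (-0.88 ± 0.05 SE, adjusted p = 6.79e-10) and BIRC5 (-0.82 ± 0.04 SE, adjusted p = 9.96e-10). Under the ligand 0 of the 26 mitotic genes passed by edgeR, and all 26 fitted values were below 0, with a median of -0.12. At an unadjusted p under 0.05 there were 17 of the 26. Over all 17702 genes tested, 1297 had such a p and 9106 fitted values were below 0. The median of the 48 replication genes in that comparison was -0.03, with 32 of 48 below 0. Differences between the lists were not tested.

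**Figure D4:**
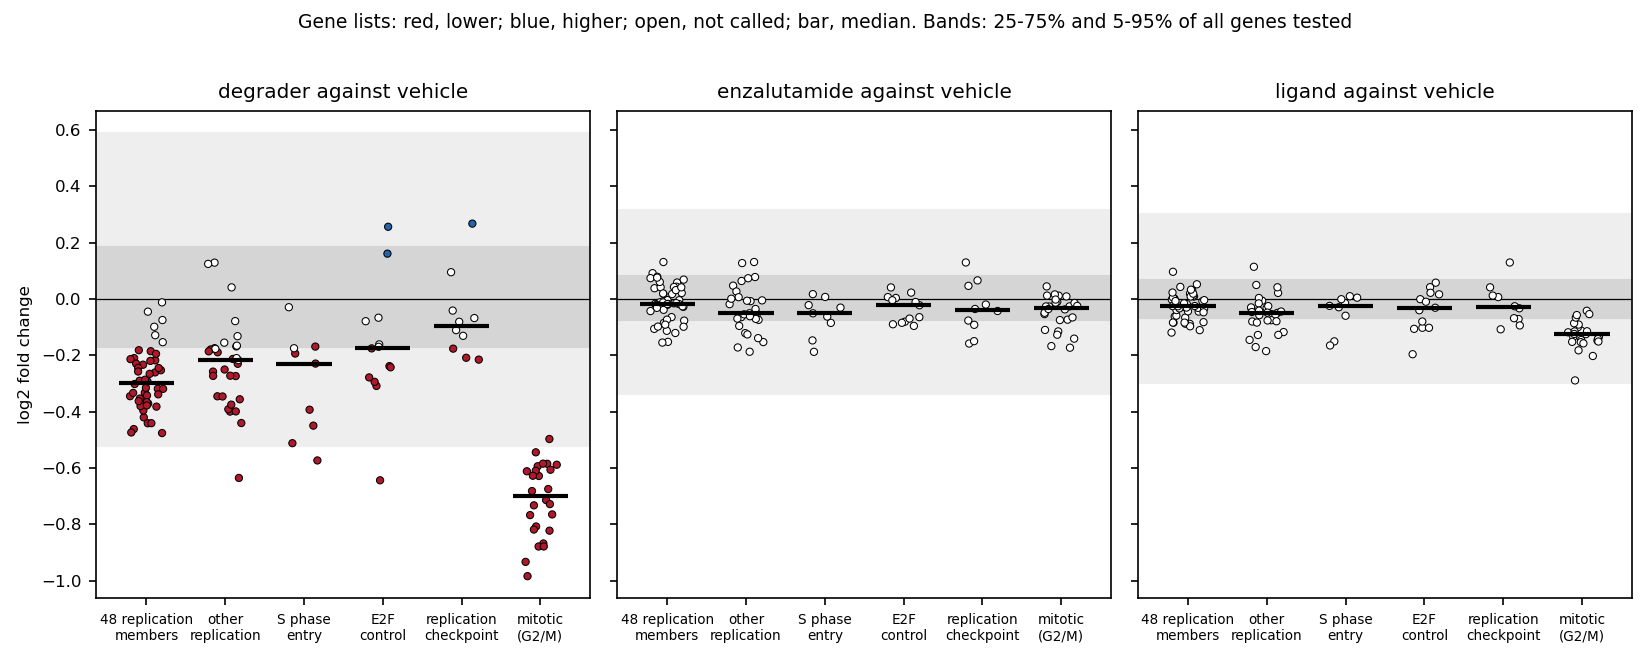
Log2 fold changes against vehicle of the 48 replication genes and 5 neighbouring lists (y axis, log2 scale; points, genes; red, lower; blue, higher; open, not called; bar, median; shaded bands, the middle 50% and 90% of all genes tested). Under the degrader the replication genes lie around -0.30 and the mitotic genes around -0.70, and under enzalutamide and the ligand no point of these lists is filled.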

How the data were processed

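RNA-seq of 12 libraries of 22Rv1 cells (4 groups of 3) was used. Per the labels' protocols, RNA was taken up in Trizol and libraries were made with a stranded mRNA kit. HISAT2, StringTie and the GRCh37 build are named per the submitters' processing notes, with versions and roles not given in the sources used here. The deposited table held, per the file headers, a raw read count and an FPKM value per gene and library. It also held the authors' signed fold change, a score in which a fall is minus the inverse ratio. Beside it stood the authors' Benjamini-Hochberg adjusted p-value against vehicle, from a test not named in the sources used here. For RFC1 and SLBP under the degrader that value equalled the one from DESeq2 here. Another 24 columns of per-library values were not used.

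The 48 genes and the lists set beside them were chosen with earlier results of these data known. Genes were filtered with filterByExpr (minimum count 10, minimum total 15), scaled by TMM, and tested in 1 edgeR quasi-likelihood fit over all 12 libraries with group as the term (8 residual degrees of freedom), with Benjamini-Hochberg adjustment over 17702 genes and calls at an adjusted p under 0.05 without a fold minimum. All 6 contrasts were tested. Levels are TMM-scaled CPM, and levels of different genes were compared as the authors' FPKM. Replicates of a group were distinct (chi-square per degree of freedom 5.56 to 22.8 over 12 pairs, 0 identical), so the spread between cultures, not counting error, set the precision.

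Values in every library are given for the called genes with the largest change in each role and for CDC6, CDT1, GMNN, MCM2, PCNA and UHRF1; of other lists, the 4 genes with the smallest p and those called against their list's direction are named, and E2F1 and CCNE2 always. The script was tested on simulated data. Same-numbered enzalutamide and vehicle libraries deviated together (r of 0.21 to 0.48 in 3 of 3 pairs), so these numbers were taken to pair them. Their printed values still come from the fit without a block, except where the block is named. The other 5 contrasts each had a same-numbered pair at 0.1 or below. Over all groups the median r was 0.24 for same-numbered libraries and -0.16 for the rest. Deviations were taken from each group's own mean, so a positive first value pushes the second below 0. The second value is therefore not separate support for pairing. The replicate block was an alternative throughout. Other alternatives were no filter, a mean CPM of at least 5, RLE and upper quartile factors, DESeq2, limma-voom, only the compared groups, and each library left out. Promoters are RefSeq's on GRCh38.p14; overlaps come from a GRCh38 annotation, while the authors used GRCh37. Against that annotation, 14 of the 48 genes share exonic bases with another gene of the table, and 21 with any annotated gene. The latter include POLA2 (2012 bases) and POLD1 (426 bases), both on the same strand. FEN1 also has a pseudogene in the table, and RPA2 has annotated pseudogenes that are not in it. MCM5 had no promoter entry to print. Software was edgeR 4.0.16, DESeq2 1.42.0, limma 3.58.1 and data.table (1.17.8) on R 4.3.3, with pandas 2.3.3 and matplotlib 3.10.9.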

Additional observations from a re-analysis of the deposited data

How the results depend on the processing

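The count of replication genes called lower was 42 against vehicle (42 to 44 under the 8 other settings, 38 to 43 with 1 library left out), 36 against enzalutamide (36 to 39; 34 to 36) and 39 against the ligand (36 to 41; 34 to 39). No setting called any of them higher or called any in the other contrasts. With the replicate number as a block these counts were 44, 39 and 41; of the 31 other replication genes 26 were lower than in vehicle with the block, with MTBP, DONSON, CHTF18, ATAD5 and HELLS added, and POLD4 was higher. The block raised the counts over all genes to 154 higher and 399 lower for enzalutamide against vehicle, 125 and 66 for the ligand against vehicle, and 403 and 210 for the ligand against enzalutamide. Over the 3 contrasts with the degrader, same-numbered libraries did not all deviate together (r of 0.03 to 0.50), and for 10 of 12 libraries the best match over groups had their own number. DESeq2 called 114 genes higher for enzalutamide and 101 higher and 23 lower for the ligand against vehicle, and a fit of only the compared groups called 21 higher for the ligand against vehicle and 71 lower for the ligand against enzalutamide; the cause was not tested. With 1 library left out, counts over all genes were 2272 to 2607 higher and 2286 to 2610 lower for the degrader against vehicle, 2299 to 2589 and 2210 to 2621 against enzalutamide, and 1846 to 2644 and 1902 to 2764 against the ligand. They were 32 to 45 higher and 141 to 173 lower for enzalutamide against vehicle, 19 to 70 and 2 to 7 for the ligand against vehicle, and 175 to 240 and 54 to 97 for the ligand against enzalutamide. The scalings left the median of all genes within 0.02 of 0 on the log2 scale. The lowest count of the 48 genes in any library was 1210, for PRIM2, and each group had 3 libraries. The log2 fold change of CDT1, which no setting called, also turned positive against the ligand without degrader replicate 3 or ligand replicate 2 (0.02 and 0.02).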
